A study of Mus musculus with 6 samples.

Results

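Metal and vitamin transporters are membrane proteins of the solute carrier (Slc) families that carry iron, zinc, copper, manganese, magnesium, folate, thiamine, ascorbate and riboflavin across the plasma membrane or the membranes of organelles. The genes described here were chosen by symbol alone, from the families Slc11, Slc19, Slc23, Slc30, Slc31, Slc39, Slc40, Slc41, Slc46 and Slc52, and numbered 43 of the 24346 genes in the deposited table. RNA was sequenced from the caput of the epididymis, the first region of the duct where sperm mature, of 8-week-old mice. There were 3 wild-type libraries and 3 libraries of the genotype Adgrg2-/Y, labelled Adgrg2-KO and called KO below. Adgrg2 lies on the X chromosome and encodes an orphan receptor of the adhesion class, made by the male excurrent ducts. The labels do not give the altered part of the gene. Nor do they say that each library stands for its own animal, and the spread that p-values rest on may be partly technical.

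Members of the Slc39 family, the ZIP proteins, bring zinc and in some cases iron or manganese into the cytosol, and members of the Slc30 family, the ZnT proteins, move zinc or manganese out of the cytosol into organelles or out of the cell. Iron enters through Slc11a2 and leaves through Slc40a1, and copper enters through Slc31a1. Cells sense excess zinc through the transcription factor MTF1, which binds the metal response element and drives the metallothionein genes Mt1 and Mt2 and the zinc exporter gene Slc30a1.

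The libraries held 18136864 to 21455984 normalized counts, the authors' fragment numbers after scaling between libraries. Adgrg2 itself was at 808, 850 and 841 FPKM in the wild-type libraries, against 410, 324 and 328 FPKM in the KO (log2 change -1.24 ± 0.16 SE, adjusted p = 0.0579). KO replicate 3 stood apart from the other libraries. Its FPKM summed to 931769, against 645173 to 732542 in the others. In that library the summed level of the 7 smooth muscle markers was 224 FPKM against 2171 to 2442 FPKM in wild-type, that of the 7 basal cell markers 28.9 against 168 to 176 FPKM, and that of the 7 endothelial markers 3.73 against 58.1 to 61.6 FPKM, while the 8 luminal epithelial markers summed to 2599 against 1335 to 1410 FPKM. The luminal sum was also above wild-type in KO replicates 1 and 2, at 1746 and 1565 FPKM. The smooth muscle sum rested mainly on Actg2. Its remaining 6 markers summed to 495 to 531 FPKM in wild-type, with 398, 549 and 48.4 FPKM in KO replicates 1, 2 and 3. Of the 7 smooth muscle markers, 6, 2 and 7 were below all wild-type libraries in these KO libraries. The 9 macrophage and dendritic cell markers summed to 323 to 340 FPKM in wild-type and to 210, 431 and 197 FPKM in KO replicates 1, 2 and 3, where 8, 1 and 8 of them were below all wild-type libraries. The 10 markers of the initial segment, the part of the caput nearest the testis, summed to 34857 to 36904 FPKM in wild-type, and in KO replicates 1, 2 and 3 to 18104, 5573 and 2491 FPKM. The 10 spermatid and sperm markers summed to 111 to 118 FPKM, against 22.6, 8.42 and 1.99 FPKM in the same KO libraries. The 5 red blood cell markers summed to 78.9 to 82.8 FPKM in wild-type and to 5.41, 18 and 5.28 FPKM in the KO libraries. Most of this was Hba-a1, a gene for a globin chain with a near-identical copy. Hbb-bs, another of these markers, was at 13.2 FPKM in wild-type replicate 3 and at 0.0032 FPKM or less in the other libraries. No marker of these lists was listed at 0 in all libraries. Fewer cells of a type and less RNA per cell cannot be told apart in such bulk samples, and the part of these cells in the values that follow was not tested.

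The promoters of 4 genes are shown because they hold the core letters of the metal response element and belong to genes that the results turn on. The windows run from 250 bases before to 50 bases after an annotated start, on the gene's strand, and are from RefSeq, build GRCm38.p6. Capitals mark the element's core, searched as TGCACNC and TGCGCNC on both strands, where the reverse reads GNGTGCA or GNGCGCA. The first is the promoter of Mt1, a textbook MTF1 target (chr8:94178839-94179138, plus strand), followed by Slc30a1 (chr1:191906531-191906830, plus), Slc41a3 (chr6:90618996-90619295, plus) and Slc19a1 (chr10:77032489-77032788, plus).
Mt1: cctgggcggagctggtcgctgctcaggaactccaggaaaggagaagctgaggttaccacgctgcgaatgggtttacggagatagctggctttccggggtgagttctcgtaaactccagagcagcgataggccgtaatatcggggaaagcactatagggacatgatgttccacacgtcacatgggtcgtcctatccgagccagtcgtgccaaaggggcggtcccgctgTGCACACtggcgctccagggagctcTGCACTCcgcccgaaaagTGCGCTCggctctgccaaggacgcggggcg
Slc30a1: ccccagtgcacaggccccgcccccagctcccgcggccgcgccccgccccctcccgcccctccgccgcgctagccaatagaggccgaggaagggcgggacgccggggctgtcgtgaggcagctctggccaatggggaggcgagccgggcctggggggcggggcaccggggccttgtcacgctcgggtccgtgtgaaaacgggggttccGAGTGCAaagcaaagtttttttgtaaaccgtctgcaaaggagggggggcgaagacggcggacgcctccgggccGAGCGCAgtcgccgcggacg
Slc41a3: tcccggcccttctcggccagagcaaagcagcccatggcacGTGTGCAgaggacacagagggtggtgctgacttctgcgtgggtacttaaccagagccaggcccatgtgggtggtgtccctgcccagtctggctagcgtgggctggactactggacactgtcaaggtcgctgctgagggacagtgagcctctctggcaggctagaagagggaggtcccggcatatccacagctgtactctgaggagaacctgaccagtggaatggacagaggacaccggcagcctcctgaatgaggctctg
Slc19a1: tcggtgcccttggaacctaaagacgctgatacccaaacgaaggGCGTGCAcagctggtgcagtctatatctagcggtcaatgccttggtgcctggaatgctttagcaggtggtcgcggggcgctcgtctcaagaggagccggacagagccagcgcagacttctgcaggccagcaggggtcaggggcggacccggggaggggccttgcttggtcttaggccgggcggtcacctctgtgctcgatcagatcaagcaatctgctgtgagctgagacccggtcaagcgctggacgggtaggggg
The Mt1 window held 3 cores, 1 beginning 23 bases upstream of the annotated start used here and the others 3 and 21 bases downstream of it. Which start of these genes is used in the caput was not tested. Slc30a1 held 2, of which 1 began 43 bases upstream. The printed windows of Slc41a3 and Slc19a1 held 1 each, 210 and 207 bases upstream, in the reverse orientation. Both windows lie inside the RefSeq span of their gene, which begins at 90604730 for Slc41a3 and at 77032269 for Slc19a1. A further Slc19a1 window (chr10:77032962-77033261), not printed, held 1 core, 142 bases upstream in the reverse orientation. In GENCODE M21 each of the 4 windows overlapped an exon of its own gene. The Slc30a1 window also overlapped 1700034H15Rik, an annotated gene of the opposite strand.

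Promoters were given for 34 of the 43 genes, in 41 windows, and 20 of these windows held a core, which is 48.8% against 25.7% of all 32851 promoters in the table. The transporter windows were also richer in G and C, with a median of 60% against 52.7%, and the part of base composition in that share was not tested. Among the tested transporters, the 16 with a core in any window had a median log2 change of -0.24, with 13 negative. The 14 without had a median of 0 with 7 negative. Over all tested genes the median was 0.01, with 6201 of 12799 negative. Mt1 and Mt2, whose windows held 3 and 4 cores, had positive log2 changes (0.77 ± 0.36 and 0.69 ± 0.32 SE). A gene with more than 1 window had more chances of a match. The same split was not made over all genes, and the difference was not tested. A match to these letters is a description and does not show binding. Slc11a2, Slc23a1, Slc30a8, Slc39a14, Slc39a4, Slc39a6, Slc40a1, Slc52a2 and Slc52a3 have no promoter entry.

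The caput expressed most of the 43 genes. The limit used for testing was a 6-library mean of 1 FPKM. It was reached by 37 genes, while 18 had means of 10 FPKM or more and 3 had 50 FPKM or more. FPKM is a level per kilobase of transcript, so levels can be compared between genes. The highest was Slc39a7, the ZIP protein that releases zinc from the endoplasmic reticulum, followed by the copper importer gene Slc31a1 and by Slc39a1, a zinc importer of the plasma membrane.

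Below the limit were 6 genes. Slc30a8, the zinc transporter of insulin granules, was listed at 0 in every library, and Slc39a12 was at 0 in all but KO replicate 3, where 2.6 normalized counts were recorded. Slc30a10, a manganese exporter gene, did not exceed 4.39 normalized counts and Slc39a5 did not exceed 6.25. Slc39a2 held 0.978 to 7.29 normalized counts in 5 libraries and 24.7 in KO replicate 3. Slc23a1, an ascorbate transporter gene of kidney and intestine, held 12 to 24.8.

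**Figure D1:**
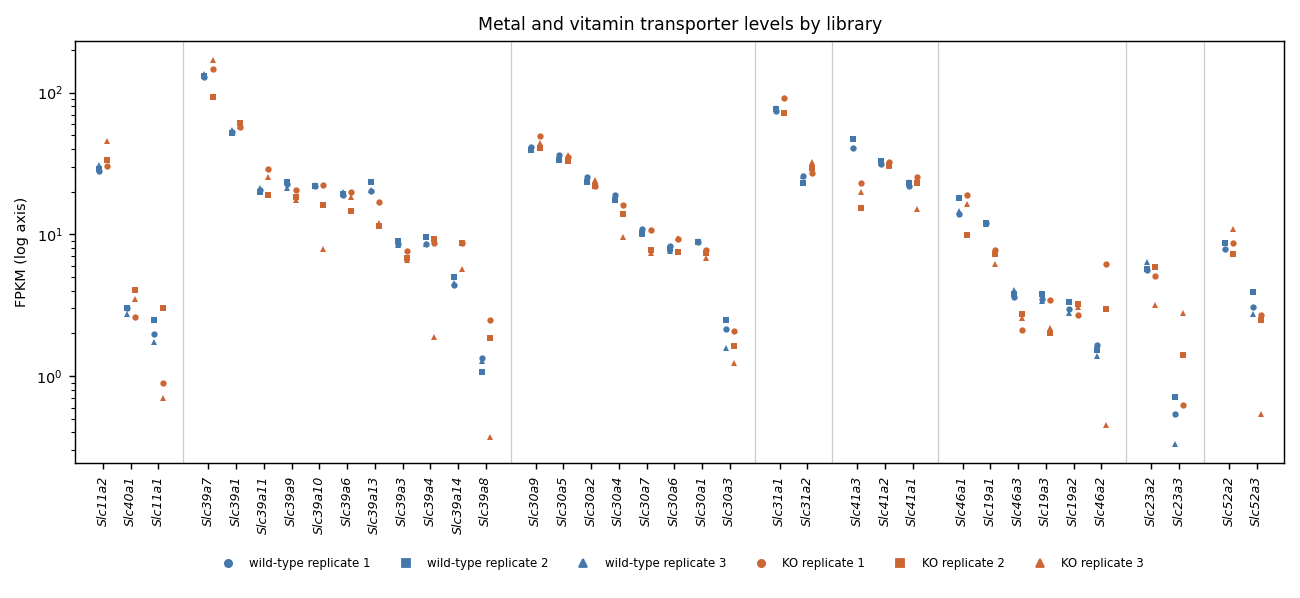
FPKM (log axis) of the 37 tested transporters in each library, grouped from left to right as iron, zinc import, zinc export, copper, magnesium, folate and thiamine (with the other Slc46 genes), ascorbate and riboflavin; each point is 1 library. For most genes the wild-type points lie close together, Slc41a3 and Slc19a1 have all KO points below them, and KO replicate 3 lies far below the rest for Slc39a4 and Slc52a3.

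In the comparison of KO with wild-type, which asks which transcripts of the caput differ between the genotypes, none of the 37 tested transporters passed the threshold (limma on log2(FPKM + 1), adjusted p under 0.05 over 12799 genes). Over all genes 32 passed, or 0.25%. At an unadjusted p under 0.05 there were 9 transporters, which is 24.3% against 17.5% of all tested genes. Of the 37, 8 were lower at that p, against 8.08% of all tested genes, and 1 was higher, against 9.46%. The 8 lower genes were Slc41a3, Slc19a1, Slc39a13, Slc46a3, Slc30a1, Slc39a3, Slc39a9 and Slc30a4, and the higher gene was Slc39a14.

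In 12 of the 37 genes (32.4%) all KO libraries lay on 1 side of all wild-type libraries, against 32.9% of all tested genes, so that share was near the background. KO was lower in 9 of the 37, against 16.1% of all tested genes, and higher in 3 of the 37, against 16.8%. The median log2 change of the 37 genes was -0.10 against 0.01 over all tested genes, with 23 negative and 14 positive. Measured from the wild-type mean, KO replicates 1, 2 and 3 had transporter medians of 0.02, -0.11 and -0.33, with 0.01, -0.02 and 0.05 over all genes. The median SD of a transporter was 0.066 on the log2 scale in the wild-type libraries and 0.27 in the KO, close to the 0.067 and 0.284 of all tested genes.

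The calls depended on single libraries of either genotype. Without KO replicate 1, 3 transporters passed (4.23% of all genes did, 2.75% lower), namely Slc41a3, Slc19a1 and Slc39a13, all lower. Without KO replicate 3, 3 passed (4.93% of all genes did, 2.34% lower and 2.59% higher), namely Slc41a3 and Slc19a1, both lower, and Slc39a14, higher. None passed without KO replicate 2 (0.133% of all genes) or without any one of the wild-type libraries (0.0156% each time). With each library weighted by its own spread, Slc41a3, Slc19a1 and Slc39a14 passed (2.36% of all genes). The weight of KO replicate 3 was 0.0748, against 0.605 and 0.451 for KO replicates 1 and 2 and 3.19 to 4.7 for wild-type. KO replicate 3 thus counted little, and these are the genes that passed without it. With quantile normalization Slc41a3 and Slc19a1 passed (0.828% of all genes). The cause of these differences was not tested.

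The lowest KO mean relative to wild-type on the log2 scale among the tested transporters was that of Slc41a3, a member of the magnesium transporter family whose human protein has been placed in mitochondria. It lies on chromosome 6 from 90604730 to 90646412 (GRCm38). Its level was 40.9, 47.3 and 47.1 FPKM in the wild-type libraries and 22.9, 15.3 and 19.8 FPKM in KO replicates 1, 2 and 3. Every KO library was thus below every wild-type library, and the genotypes were well apart. The mean was 2.33-fold lower, at 19.3 ± 3.82 against 45.1 ± 3.67 FPKM (SD, n = 3), with a log2 change of -1.19 ± 0.16 SE. The adjusted p was 0.0659 over the 6 libraries and 0.0208, 0.074 and 0.0342 when KO replicate 1, 2 or 3 was left out. With wild-type replicate 1, 2 or 3 left out it was 0.349, 0.456 and 0.412. It ranged from 0.019 to 0.456 over all alternatives.

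Slc41a3 was the highest of the Slc41 genes in each wild-type library and in no KO library. It made up 43.4% to 46% of the summed FPKM of the 3 genes in the wild-type libraries and 28.4%, 22.1% and 30.3% in the KO libraries. Slc41a2, a magnesium transporter gene, was at 31.5, 32.8 and 31.9 FPKM against 32.4, 30.9 and 30.3 FPKM. The genotypes overlapped, and the log2 change was -0.04 ± 0.09 SE. Slc41a1, a sodium-magnesium exchanger of the plasma membrane, was at 21.8, 23 and 23.3 FPKM in wild-type, at 25.3 and 23.2 FPKM in replicates 1 and 2 of the KO and at 15.2 FPKM in KO replicate 3. The family's summed level was 94.1 to 103 FPKM in the wild-type libraries and 80.7, 69.4 and 65.3 FPKM in the KO.

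Slc19a1 encodes the reduced folate carrier, the main route of folate into most cells, and lies on chromosome 10 from 77032269 to 77050432. It was at 12, 12 and 11.8 FPKM in the wild-type libraries, against 7.81, 7.21 and 6.16 FPKM in the KO. The wild-type libraries were almost equal and each KO library was lower, by 0.55, 0.65 and 0.85 on the log2 scale. The mean was 1.69-fold lower, at 7.06 ± 0.836 against 11.9 ± 0.099 FPKM, with a log2 change of -0.69 ± 0.11 SE. The adjusted p was 0.0854 over the 6 libraries and 0.0323, 0.128 and 0.0178 when KO replicate 1, 2 or 3 was left out. With wild-type replicate 1, 2 or 3 left out it was 0.472, 0.503 and 0.489. It ranged from 0.0178 to 0.503 over all alternatives.

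Slc19a2 and Slc19a3 encode the thiamine transporters of the same family. Slc19a2 was at 2.99, 3.35 and 2.79 FPKM against 2.7, 3.21 and 3.09 FPKM, with overlapping genotypes (log2 change -0.02 ± 0.12 SE). Slc19a3 was at 3.49, 3.79 and 3.39 FPKM in wild-type, at 3.45 FPKM in KO replicate 1 and lower, with 2.0 and 2.17 FPKM, in replicates 2 and 3 of the KO (log2 change -0.39 ± 0.18 SE, adjusted p = 0.324). Whether the changes of the 3 genes differ from each other was not tested.

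**Figure D2:**
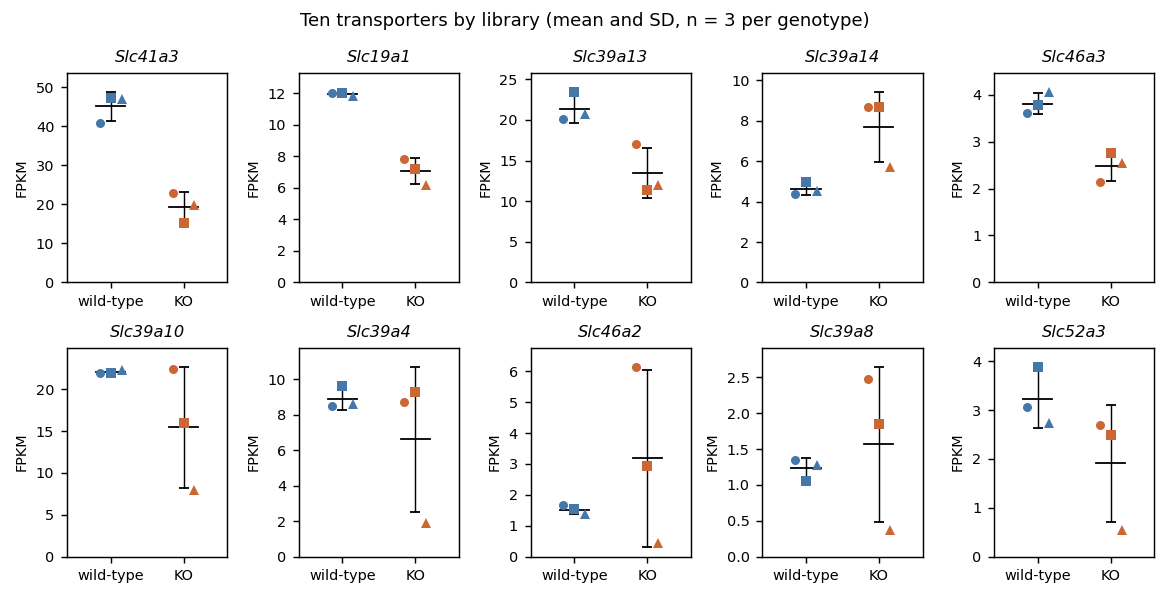
FPKM of 10 transporters in each library (circle, square and triangle for replicates 1, 2 and 3), with the mean as a horizontal line and the SD as a bar, n = 3 per genotype; axes start at 0. In the upper row the KO libraries lie on 1 side of the wild-type libraries, and in the lower row KO replicate 3 (triangle) is the lowest of the 6 libraries.

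The Slc46 family holds Slc46a1, the proton-coupled folate transporter that takes up folate at acid pH, and 2 genes related to it by sequence. Slc46a1 was at 14, 18 and 14.6 FPKM in the wild-type libraries, against 18.9, 9.86 and 16.5 FPKM in the KO. KO replicates 1 and 2 lay on opposite sides of wild-type, and the log2 change was -0.07 ± 0.24 SE. Its span overlaps that of Sarm1.

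Slc46a3, a transporter gene of the lysosomal membrane, was at 3.6, 3.78 and 4.05 FPKM against 2.13, 2.76 and 2.55 FPKM. Each KO library was below each wild-type library, by a 1.54-fold difference of the means (log2 change -0.47 ± 0.12 SE, adjusted p = 0.17, range over the alternatives 0.0739 to 0.581). Slc46a2, a gene known from thymic stroma, was at 1.67, 1.53 and 1.38 FPKM in the wild-type libraries and, in KO replicates 1, 2 and 3, at 6.15, 2.95 and 0.451 FPKM. The KO libraries thus lay on both sides of wild-type, with 213, 102 and 15.6 normalized counts against 47.9 to 57.7 in wild-type. Its log2 change was 0.45 ± 0.55 SE (adjusted p = 0.658), and 1.07 without KO replicate 3 (adjusted p = 0.0796).

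Among the zinc importers the summed FPKM of the 14 Slc39 genes was 309 to 318 in the wild-type libraries and 340, 261 and 325 in the KO, with Slc39a7 making up 41.4% to 42.5% and 42.9%, 35.8% and 52.4%. Slc39a7 was at 129, 130 and 135 FPKM in the wild-type libraries, against 146, 93.3 and 170 FPKM in the KO. Its KO libraries lay above and below wild-type, and the log2 change was 0.01 ± 0.23 SE, with a range of -0.17 to 0.26 over the alternatives. Slc39a1 was at 52.9, 52 and 54.4 FPKM against 57.6, 61.3 and 58.5 FPKM. Each KO library was higher, but only slightly (log2 change 0.15 ± 0.09 SE, adjusted p = 0.403). In wild-type Slc39a9, Slc39a10, Slc39a13, Slc39a11 and Slc39a6 followed, between 19.4 and 22.4 FPKM, as means, and each overlapped its neighbour in that order.

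Slc39a14 was the transporter gene with higher KO values that passed in part of the fits. Its protein carries zinc, iron not bound to transferrin, and manganese, and the gene lies on chromosome 14 from 70303467 to 70351452. It was at 4.38, 4.99 and 4.54 FPKM in the wild-type libraries, against 8.69, 8.67 and 5.71 FPKM in the KO. Each KO library was above each wild-type library, and KO replicate 3 was the closest. The mean was 1.66-fold higher, at 7.69 ± 1.72 against 4.64 ± 0.317 FPKM, with a log2 change of 0.61 ± 0.17 SE. The adjusted p was 0.186 over the 6 libraries and 0.0144 without KO replicate 3, with a range of 0.0144 to 0.583 over the alternatives.

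Slc39a8, the closest relative of Slc39a14 and likewise a carrier of manganese, was at 1.35, 1.06 and 1.28 FPKM in the wild-type libraries, against 2.48, 1.85 and 0.373 FPKM in the KO. KO replicates 1 and 2 were higher and KO replicate 3 was lower, at 22.1 normalized counts against 65.3 to 81.2 in wild-type. The log2 change was 0.10 ± 0.36 SE over the 6 libraries and 0.50 without KO replicate 3 (adjusted p = 0.0987). The span of Slc39a8 overlaps that of 4933401H06Rik.

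Slc39a13, a zinc transporter of the Golgi and vesicles needed for connective tissue, was the third gene that passed without KO replicate 1. It lies on chromosome 2 from 91061781 to 91070441, where it overlaps Gm39874. Levels were 20.1, 23.4 and 20.7 FPKM in the wild-type libraries and 17, 11.4 and 12 FPKM in the KO. The genotypes did not overlap, and KO replicate 1 was the closest to wild-type. The mean was 1.59-fold lower, at 13.5 ± 3.05 against 21.4 ± 1.75 FPKM (log2 change -0.65 ± 0.17 SE). Its adjusted p was 0.163 over the 6 libraries, 0.0292 without KO replicate 1 and 0.116 without KO replicate 3, with a range of 0.0292 to 0.559 over the alternatives.

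A pair of other ZIP genes was lower in each KO library by small amounts. Slc39a3, a zinc importer gene, was at 8.52, 8.91 and 8.45 FPKM against 7.68, 6.81 and 6.64 FPKM (log2 change -0.26 ± 0.10 SE, adjusted p = 0.253). Slc39a9, a ZIP gene of the Golgi whose span overlaps that of Erh, was at 22.7, 23.3 and 21.2 FPKM against 20.5, 18.3 and 17.4 FPKM (log2 change -0.25 ± 0.10 SE, adjusted p = 0.282).

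Slc39a10 and Slc39a4, both zinc importers of the plasma membrane, were low in KO replicate 3. Slc39a10 was at 21.9, 21.9 and 22.3 FPKM in the wild-type libraries, against 22.4, 16 and 7.94 FPKM in the KO. Slc39a4, the zinc importer of the intestine, was at 8.51, 9.61 and 8.61 FPKM in wild-type, at 8.71 and 9.27 FPKM in replicates 1 and 2 of the KO and at 1.9 FPKM in KO replicate 3. Its log2 change was -0.58 ± 0.49 SE over the 6 libraries and 0.01 without KO replicate 3 (adjusted p = 0.521 and 0.936). Slc39a11 was at 20.6, 19.9 and 21.2 FPKM in the wild-type libraries, against 29, 19 and 25.4 FPKM in the KO, and Slc39a6 at 18.8, 19.4 and 20 against 19.8, 14.6 and 18.2 FPKM. The genotypes overlapped in both, and the spans of Sstr2 and Cog1 lie within or across that of Slc39a11.

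**Figure D3:**
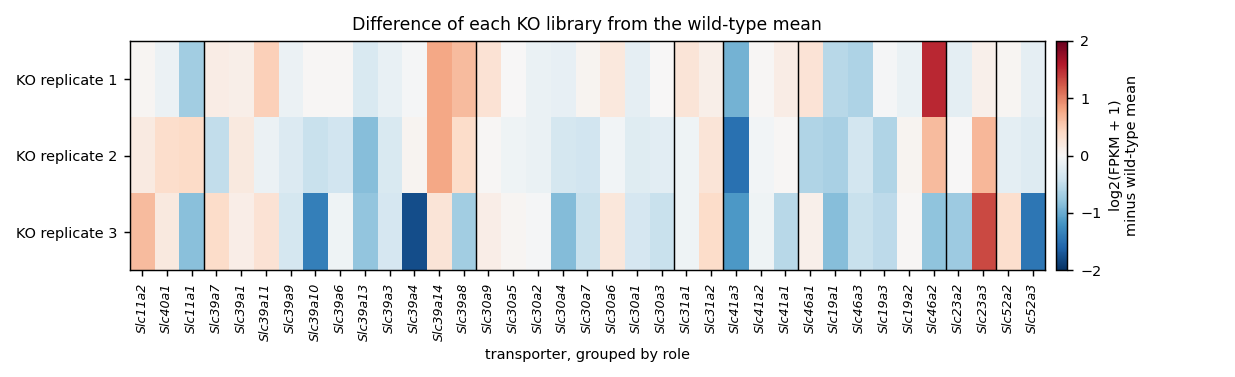
Difference of each KO library from the wild-type mean on the log2(FPKM + 1) scale for the 37 tested transporters, in the order and grouping of the plot of levels (black lines separate the roles); blue is lower and red higher, with the scale limited to 2 in either direction. Slc41a3 is blue in all 3 rows, and the deepest blue cells of KO replicate 3 are Slc39a4, Slc52a3, Slc39a10 and Slc41a3.

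Among the zinc exporters, the summed FPKM of the 10 Slc30 genes was 143 to 152 in the wild-type libraries and 152, 134 and 139 in the KO. Wild-type levels followed the order Slc30a9, Slc30a5, Slc30a2, Slc30a4, Slc30a7, Slc30a1, Slc30a6 and Slc30a3, and no neighbours in that order overlapped between wild-type libraries. Slc30a9, whose protein is known for the export of zinc from mitochondria, was at 41.4, 39.2 and 40.2 FPKM against 49.3, 40.8 and 44.3 FPKM (log2 change 0.15 ± 0.11 SE). Slc30a5, which works with Slc30a6 in the early secretory pathway, was at 36.2, 33.5 and 35.1 FPKM against 35.1, 33.1 and 36 FPKM. Its genotypes covered nearly the same range (log2 change -0.01 ± 0.09 SE). Slc30a2, which fills secretory vesicles with zinc, was at 25.4, 23.4 and 24.5 FPKM against 22.1, 22.1 and 24 FPKM (log2 change -0.10 ± 0.09 SE).

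Slc30a1, the zinc exporter of the plasma membrane whose promoter is printed above, was at 8.9, 8.83 and 8.98 FPKM in the wild-type libraries, against 7.75, 7.33 and 6.86 FPKM in the KO. All KO libraries were below wild-type, by a small amount (1.22-fold, log2 change -0.25 ± 0.09 SE, adjusted p = 0.245, range over the alternatives 0.123 to 0.619). Slc30a4, the zinc transporter mutated in lethal milk mice, was at 18.8, 17.4 and 18 FPKM against 16, 14 and 9.52 FPKM. The genotypes did not overlap, and KO replicate 3 was the lowest (log2 change -0.46 ± 0.19 SE, adjusted p = 0.282). Its span overlaps that of 4930417H01Rik. Slc30a7, a zinc transporter gene of the Golgi, was at 10 to 10.9 FPKM in the wild-type libraries, against 10.8, 7.72 and 7.4 FPKM in the KO. Slc30a6 was at 7.61 to 8.25 against 7.56 to 9.43 FPKM, and the synaptic vesicle transporter gene Slc30a3 was at 1.58 to 2.48 against 1.24 to 2.08 FPKM.

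For copper, Slc31a1, which encodes the high-affinity importer, was at 74.7, 76.4 and 77.5 FPKM in the wild-type libraries, against 91.2, 72 and 71.6 FPKM in the KO. KO replicate 1 was above and the others just below wild-type (log2 change 0.03 ± 0.13 SE), and the span overlaps that of Fkbp15. Slc31a2, its relative in endosomes and lysosomes, was at 25.9, 22.9 and 25.6 FPKM against 27, 29.6 and 32.2 FPKM. Each KO library of Slc31a2 was higher, by a log2 change of 0.24 ± 0.11 SE (adjusted p = 0.311).

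For iron, Slc11a2, the proton-coupled importer of divalent iron, was at 28, 29 and 31 FPKM in the wild-type libraries, against 30.2, 33.2 and 45.8 FPKM in the KO. KO replicates 2 and 3 exceeded all wild-type libraries and KO replicate 1 did not (log2 change 0.28 ± 0.17 SE, adjusted p = 0.406), and the span overlaps that of Gm5475. Slc40a1, which encodes the iron exporter ferroportin, was at 3.04, 3.02 and 2.76 FPKM against 2.63, 4.04 and 3.51 FPKM (log2 change 0.14 ± 0.15 SE). Slc11a1, the metal transporter of macrophage phagosomes, was at 1.97, 2.47 and 1.73 FPKM against 0.888, 3 and 0.697 FPKM. Its KO libraries were low, high and low, at 34.8, 117 and 27.3 normalized counts. The 9 macrophage and dendritic cell markers summed to 210, 431 and 197 FPKM there, against 323 to 340 FPKM in wild-type. In KO replicate 3, 8 of these markers were below all wild-type libraries. The remaining marker, Cd68, was above them, at 62.6 FPKM against 17.4 to 21.4 FPKM. The part of these cells in the level of Slc11a1 was not tested.

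Among the vitamin carriers, Slc23a2, which takes up ascorbate in most tissues, was at 5.62, 5.74 and 6.41 FPKM in the wild-type libraries, against 5.08, 5.91 and 3.19 FPKM in the KO (log2 change -0.30 ± 0.20 SE). Slc23a3, a family member whose substrate is less certain, was at 0.538, 0.716 and 0.331 FPKM against 0.629, 1.4 and 2.78 FPKM, or 96.2 normalized counts in KO replicate 3 against 11.4 to 24.8 in wild-type (log2 change 0.69 ± 0.33 SE, adjusted p = 0.329). The riboflavin transporter gene Slc52a2 was at 7.88, 8.75 and 8.68 FPKM against 8.66, 7.21 and 10.9 FPKM (log2 change 0.06 ± 0.15 SE). Slc52a3, the riboflavin importer of the intestine, was at 3.06, 3.89 and 2.74 FPKM in wild-type, at 2.7 and 2.5 FPKM in replicates 1 and 2 of the KO and at 0.541 FPKM in KO replicate 3, where it rested on 19.5 normalized counts (log2 change -0.63 ± 0.36 SE, adjusted p = 0.388).

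KO replicate 3 gave the lowest value of the 6 libraries for 17 of the 37 tested transporters (45.9%), against 35% of all tested genes. KO replicate 1 did so for 4 and KO replicate 2 for 10 (11.4% and 20.9% of all genes). Differences of more than 1 on the log2 scale from the wild-type mean were seen for 1 transporter in KO replicate 1 (Slc46a2, higher), 1 in KO replicate 2 (Slc41a3, lower) and 5 in KO replicate 3 (Slc41a3, Slc39a10, Slc39a4 and Slc52a3, lower, and Slc23a3, higher). In KO replicate 3 this made 13.5% of the tested transporters against 19.4% of all tested genes.

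Other genes of metal and vitamin handling were looked up from 4 lists of binding proteins, pumps and enzymes. Tests covered 69 of the 83 genes listed, and none passed the threshold (0.25% of all genes did), with a median log2 change of -0.07. At an unadjusted p under 0.05 there were 14, which is 20.3% against 17.5% of all tested genes. Of the 69, 9 were lower and 5 higher, against 8.08% and 9.46% of all tested genes. Iron handling had 20 tested genes (median -0.03, 8 positive), zinc and copper handling 12 (median 0.01, 6 positive), magnesium and manganese handling 12 (median -0.22, 3 positive) and vitamin uptake and use 25 (median 0.02, 13 positive). Without KO replicate 3, 3 of the 69 passed, Trf, Cp and Tcn2, all lower. Of all genes 4.93% passed in that fit in either direction, and 2.34% lower. Counted in either direction, the share of the listed genes was near that of all genes. Without KO replicate 2, Folr1 alone passed, higher (0.133% of all genes).

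The metallothionein genes Mt1 and Mt2, whose products bind zinc and copper, were higher in each KO library by uneven amounts. Mt1 was at 423, 427 and 444 FPKM in the wild-type libraries, against 674, 467 and 1250 FPKM in the KO (log2 change 0.77 ± 0.36 SE, adjusted p = 0.325). Mt2 was at 259, 277 and 254 FPKM against 690, 283 and 397 FPKM (log2 change 0.69 ± 0.32 SE, adjusted p = 0.325). KO replicate 2 was close to wild-type for both. Atp7a, the copper-transporting ATPase, was at 16.9 to 17.5 FPKM in the wild-type libraries, against 14.5, 11.7 and 6.02 FPKM in the KO (log2 change -0.71 ± 0.29 SE, adjusted p = 0.282). The most abundant genes of the zinc and copper list were Sod1, the cytosolic superoxide dismutase, Mt1 and Atox1, a copper chaperone. Sod1 was at 511 ± 11.2 against 690 ± 262 FPKM and Atox1 at 470 ± 13 against 464 ± 168 FPKM, and the genotypes overlapped in both.

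The 3 genes that passed without KO replicate 3 were lower in each KO library. Without KO replicate 1 none of them passed (limma adjusted p = 0.129, 0.231 and 0.158 for Trf, Cp and Tcn2). Trf, which encodes transferrin, was at 98.7, 98.4 and 107 FPKM in the wild-type libraries, against 60.3, 51.8 and 12.6 FPKM in the KO. Each KO library was lower and KO replicate 3 by far the lowest (log2 change -1.54 ± 0.56 SE, adjusted p = 0.251, and 0.0178 without KO replicate 3). Cp, the copper-containing ferroxidase ceruloplasmin, was at 82.9, 81.8 and 81.2 FPKM against 57.6, 57.4 and 6.36 FPKM (log2 change -1.50 ± 0.81 SE, adjusted p = 0.368, and 0.0206 without KO replicate 3). Tcn2, which encodes transcobalamin, was at 53.1, 55.3 and 52.7 FPKM against 36.1, 38.5 and 16.1 FPKM (log2 change -0.90 ± 0.32 SE, adjusted p = 0.244, and 0.0246 without KO replicate 3). In KO replicate 3 all 7 smooth muscle, all 7 basal and all 7 endothelial markers were below the wild-type libraries. In KO replicate 1, 6 of the 7 smooth muscle and 8 of the 9 macrophage and dendritic cell markers were below them. So were 7 of the 10 initial segment markers, and the red blood cell markers summed to 5.41 against 78.9 to 82.8 FPKM. In KO replicate 2 all 10 initial segment markers were below, but only 2 of the smooth muscle and 1 of the macrophage and dendritic cell markers. Above all wild-type libraries there were 5 smooth muscle and 8 macrophage and dendritic cell markers. The red blood cell sum there was 18 FPKM. The part of these cells in the levels of Trf, Cp and Tcn2 was not tested.

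**Figure D4:**
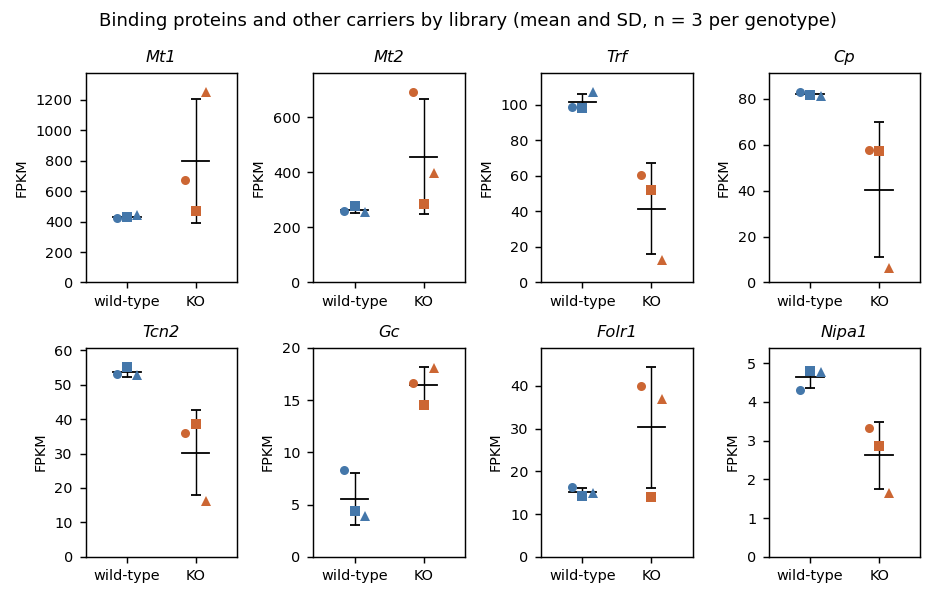
FPKM of 8 genes of metal and vitamin handling outside the transporter families in each library (circle, square and triangle for replicates 1, 2 and 3), with the mean as a horizontal line and the SD as a bar, n = 3 per genotype; axes start at 0. Trf, Cp, Tcn2 and Nipa1 have all KO libraries below wild-type, and Gc, Mt1 and Mt2 have them above, Mt2 and Mt1 only narrowly in KO replicate 2.

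The ferritin genes Ftl1 and Fth1, which encode the iron store of the cell, were the most abundant of the iron list. Ftl1 was at 1830 ± 58 FPKM in the wild-type libraries, against 1890, 2370 and 4820 FPKM in the KO, and Fth1 at 1130 ± 22.4 against 954, 1260 and 1710 FPKM. Neither passed (adjusted p = 0.424 and 0.718). Pcbp1, which delivers iron to ferritin, was at 141 ± 0.901 against 155 ± 23.4 FPKM. Lower in each KO library were the heme oxygenase gene Hmox2, at 60.8 ± 1.44 against 46.5 ± 5.75 FPKM (adjusted p = 0.205), and Hfe, a regulator of iron uptake, at 5.5 ± 0.463 against 3.78 ± 0.786 FPKM (adjusted p = 0.223).

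In the magnesium and manganese list, Nipa1, a magnesium transporter gene, was at 4.31, 4.81 and 4.78 FPKM against 3.33, 2.87 and 1.66 FPKM (log2 change -0.67 ± 0.20 SE, adjusted p = 0.2). Mrs2, the magnesium channel of mitochondria, was at 15.3 ± 0.903 against 10.6 ± 2.97 FPKM (adjusted p = 0.266), and Cnnm2 at 9.06 ± 0.86 against 6.96 ± 0.843 FPKM (adjusted p = 0.251). The genotypes did not overlap in these genes. The most abundant of the list were Magt1, at 38.3 ± 1.34 against 36.5 ± 5.85 FPKM, Tmem165, at 33.8 ± 0.919 against 34.3 ± 4.13 FPKM, and Atp2c1, the calcium and manganese pump of the Golgi, at 18.7 to 21.4 against 13.6 to 19.7 FPKM, with overlapping genotypes in each.

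In the vitamin list, Gc, the vitamin D binding protein gene, was at 8.35, 4.35 and 3.89 FPKM in the wild-type libraries, against 16.6, 14.5 and 18.1 FPKM in the KO. All KO libraries were well above wild-type, although wild-type replicate 1 stood above the other two (log2 change 1.47 ± 0.26 SE, adjusted p = 0.103, and 0.0627 without KO replicate 3). Folr1, a folate receptor gene, was at 16.3, 14.1 and 14.8 FPKM in the wild-type libraries, against 39.9, 14 and 37 FPKM in the KO, where KO replicate 2 was at the wild-type level (log2 change 0.83 ± 0.39 SE, adjusted p = 0.323). Gsto1, a glutathione transferase that reduces dehydroascorbate, was at 7.22 ± 0.265 against 9.16 ± 1.14 FPKM (adjusted p = 0.262). The most abundant of this list were Ggh, a folate hydrolase gene, at 62.1 ± 5.15 against 74 ± 27.8 FPKM, Rfk, the riboflavin kinase gene, at 51.2 ± 1.3 against 41.9 ± 8.44 FPKM, and Tcn2.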

How the data were processed

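The deposited table lists 24346 genes in 6 libraries. Its header names FPKM, a level scaled to transcript length and library size, and normalized counts, and the authors made both. The deposited normalized count is a signal whose values are not whole, so no count model was fitted. The submitters' processing notes name TopHat2 2.1.1, Cufflinks 2.2.1 and build mm10. The labels' protocols name a stranded mRNA kit. For annotation, counting strand and normalization method, nothing is stated in the sources used here. Overlapping genes may share reads.

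The 12799 genes with a 6-library mean of 1 FPKM or more were tested together with limma 3.58.1 in R 4.3.3 on log2(FPKM + 1), a scale that understates changes of low genes. The model had genotype as its term and moderation with a mean-variance trend, was two-sided and used Benjamini-Hochberg adjustment over all tested genes at 0.05, and it was checked on simulated data. Transporters, lists and tests were chosen with earlier results of these data known. Genes were described where they were among the 12 highest, highest in their role, not overlapping between genotypes, at an unadjusted p under 0.05, or past the threshold without KO replicate 1 or 3. Library values of other members were added after they had been seen. Of the pathway lists, members past the threshold, up to 4 of lowest p under 0.05 and the 3 most abundant were described, except 2 that are not reported here, and Mt2, Cp and Folr1 were added after their values were seen. Positions (43 genes) and promoters (34 genes) came from RefSeq, assembly GRCm38.p6, and were looked up by gene identifier. A planned search of protein sequences was not run. Alternatives were other pseudocounts (0.1 and 0.01), filters, scalings and moderation, library weights, a replicate block, the normalized counts and each library left out.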

Additional observations from a re-analysis of the deposited data

How the results depend on the processing

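The count of 32 genes past the threshold over all genes was 16 and 11 with pseudocounts of 0.1 and 0.01, 72 with no filter, 17 with a mean of at least 5 FPKM, 106 with quantile normalization, 302 with library weights, 6 with normalized counts and 2 to 631 with 1 library left out. The count of 0 transporters (limma, 9 at an unadjusted p under 0.05) was 2 with quantile normalization, 3 with library weights and 0 to 3 with 1 library left out, and stayed at 0 under the other alternatives. The count of 0 among the other metal and vitamin genes (14 at an unadjusted p under 0.05) was 0 to 3 with 1 library left out and 0 under the rest. Adgrg2 passed with quantile normalization (log2 change -1.44, adjusted p = 0.047), without the mean-variance trend (-1.24, 0.0345) and with library weights (-1.18, 0.00712), and its log2 change was -1.35 to -1.18 with 1 library left out, where it passed without KO replicate 1 or 3. The cause of these differences was not tested.

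Deviations of same-numbered libraries from their genotype means correlated at -0.113, 0.032 and 0.08 across genes. Only replicate 3 correlated best with its own number. With 3 libraries per genotype, these values cannot settle whether same-numbered libraries were paired. With the replicate block, 1 gene passed over all genes and 0 transporters, and Adgrg2 had an adjusted p of 0.26 (log2 change -1.24). No tested transporter reversed a call. The sign of the change varied with the setting for 10 of 37, none of them past the threshold in any fit. With 3 libraries per genotype and a wider spread in the KO, small changes of single transporters could not be told from the spread between libraries.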
